A study of Mus musculus with 6 samples.

Results

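The genes described here are 49 genes of DNA replication and deoxynucleotide synthesis, chosen by name: the 6 origin recognition subunits, the licensing factors, the MCM2-7 helicase and the proteins that switch it on, the replicative polymerases with primase, the sliding clamp and its loader, the single-strand binding protein RPA, the enzymes that finish the lagging strand, 5 enzymes of nucleotide synthesis, and Uhrf1. Each symbol matched 1 row of the raw count table, so 49 of the 56941 genes in the table were taken, and all 49 had counts high enough to be tested. The table came from hair follicle stem cells (HFSCs) of mouse dorsal skin, and the study asked which genes change in HFSCs when Dab2, an endocytic adaptor protein, is deleted. The 6 samples were female mice of the strain B6;129S4-Dab2tm1Cpr/J at postnatal day 68, with 3 WT mice (K14 Cre- Dab2fl/fl) and 3 Dab2-cKO mice (K14 Cre+ Dab2fl/fl). Both genotypes carried the floxed Dab2 allele on both chromosomes and both received tamoxifen into the peritoneum at 75 mg/kg on each of 5 days, so the Cre transgene was what set them apart. The K14 promoter drives this tamoxifen-activated Cre in basal keratinocytes as a whole and not in HFSCs alone. HFSCs were sorted by FACS on the surface proteins CD34 and α6-integrin, and total RNA libraries were made from 5 ng of RNA.

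Replication starts from origins that the origin recognition complex marks. In G1 the licensing factors CDC6 and CDT1 load the ring-shaped MCM2-7 helicase there, and in S phase the kinase CDC7 with its activator DBF4, together with MCM10, CDC45 and the GINS complex, turns the loaded rings into moving forks, which polymerases copy behind the clamp PCNA on deoxynucleotides made by ribonucleotide reductase and its partners. Many of these genes are textbook targets of the E2F transcription factors and are low in resting cells, and telogen HFSCs are known as mostly resting cells that enter the cycle when a new hair begins to grow.

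The libraries held 7040032 to 11696457 counts, and the mitochondrial share of them was 13.0 to 14.4% in the WT group and 19.1 to 20.3% in the Dab2-cKO group, as labelled. Dab2 itself, the targeted gene, was read at 338, 332 and 309 normalized counts in libraries labelled WT and at 1434, 1300.2 and 1389.5 in those labelled Dab2-cKO, so the gene was higher in the libraries labelled as its knockout (log2 fold change 2.08 ± 0.0801 SE, edgeR adjusted p = 3.04e-34). The count columns of that group are named FL-FL and were matched to Dab2-cKO through the series title, although both genotypes carry the floxed allele. How the counted reads lie on the floxed part of the gene was not analysed here, and every direction below is one between libraries as labelled. Of 11 genes listed as markers of the HFSC bulge, some of which other basal keratinocytes also express (Krt5, Krt14), 8 rose, among them Cd34 and Itga6, which encode the sorted proteins, and 3 fell (Sox9, Lhx2 and Lgr5). The log2 fold changes were 1.80 for Cd34, 0.55 for Itga6 and 0.84 for Krt15. Those of Sox9, Lhx2 and Lgr5 were -1.45, -1.43 and -1.32. Which cells the Cd34 and Itga6 RNA came from was not tested. All 6 fibroblast, all 6 endothelial, all 6 skeletal muscle, 5 of 6 immune, 5 of 6 sebaceous gland and 5 of 6 differentiated epidermal markers rose, with the summed fibroblast markers at 101490 to 122730 normalized counts in libraries labelled WT and at 353980 to 373640 in those labelled Dab2-cKO. The 11 hair matrix and inner root sheath markers in the table all fell, from a sum of 221150 to 265820 to one of 3124 to 3223, and 5 of 6 melanocyte markers fell. Mki67, a proliferation marker, was read at 5854, 6537 and 6095 in libraries labelled WT and at 1429, 1458 and 1351 in those labelled Dab2-cKO. Whether the cells of either group were resting telogen HFSCs was not tested. Of the 32149 genes tested, 16.8% rose and 11.5% fell at an edgeR adjusted p under 0.05. No tested marker was at 0 in any library. Beside the 2.08 of Dab2, the median log2 fold change was 1.59 over the fibroblast, 1.83 over the endothelial, 1.76 over the immune and 2.52 over the muscle markers. Such cells are not the basal keratinocytes in which K14 drives Cre. The markers above and the mitochondrial share moved with the genotype in the Dab2 value and in every result below. Their part in that value and in those results was not tested.

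Replication and nucleotide genes were mostly lower in the libraries labelled Dab2-cKO. The 49 genes together took 0.168, 0.164 and 0.165% of the counts in the 3 libraries labelled WT and 0.0806, 0.0812 and 0.0812% in the 3 labelled Dab2-cKO, and after normalization their summed counts were 13144 to 14006 against 8756 to 8993. In edgeR's quasi-likelihood test with Benjamini-Hochberg adjustment over all genes tested, 31 of the 49 genes fell at an adjusted p under 0.05, or 63.3%, where 11.5% of the 32149 genes tested fell. A single one rose, Gins4, or 2.04%, where 16.8% of all genes tested rose, and 17 were not called. Of the 31, 21 were also lower by more than 1.5-fold, a combination met by 7.19% of all genes tested. The median log2 fold change, Dab2-cKO over WT, was -0.56 over the 49 genes (quartiles -0.83 and -0.29) and -0.02 over all genes tested. Among the 24788 genes whose mean level lay within the range of the 49, 11.3% fell and 17.4% rose. For 35 of the 49 genes each library labelled Dab2-cKO lay below each library labelled WT, a pattern that 17.7% of all genes tested showed. In bulk RNA of this kind, fewer cells in S phase, less of the RNA in each cell and another mix of cell types cannot be told apart.

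**Figure D1:**
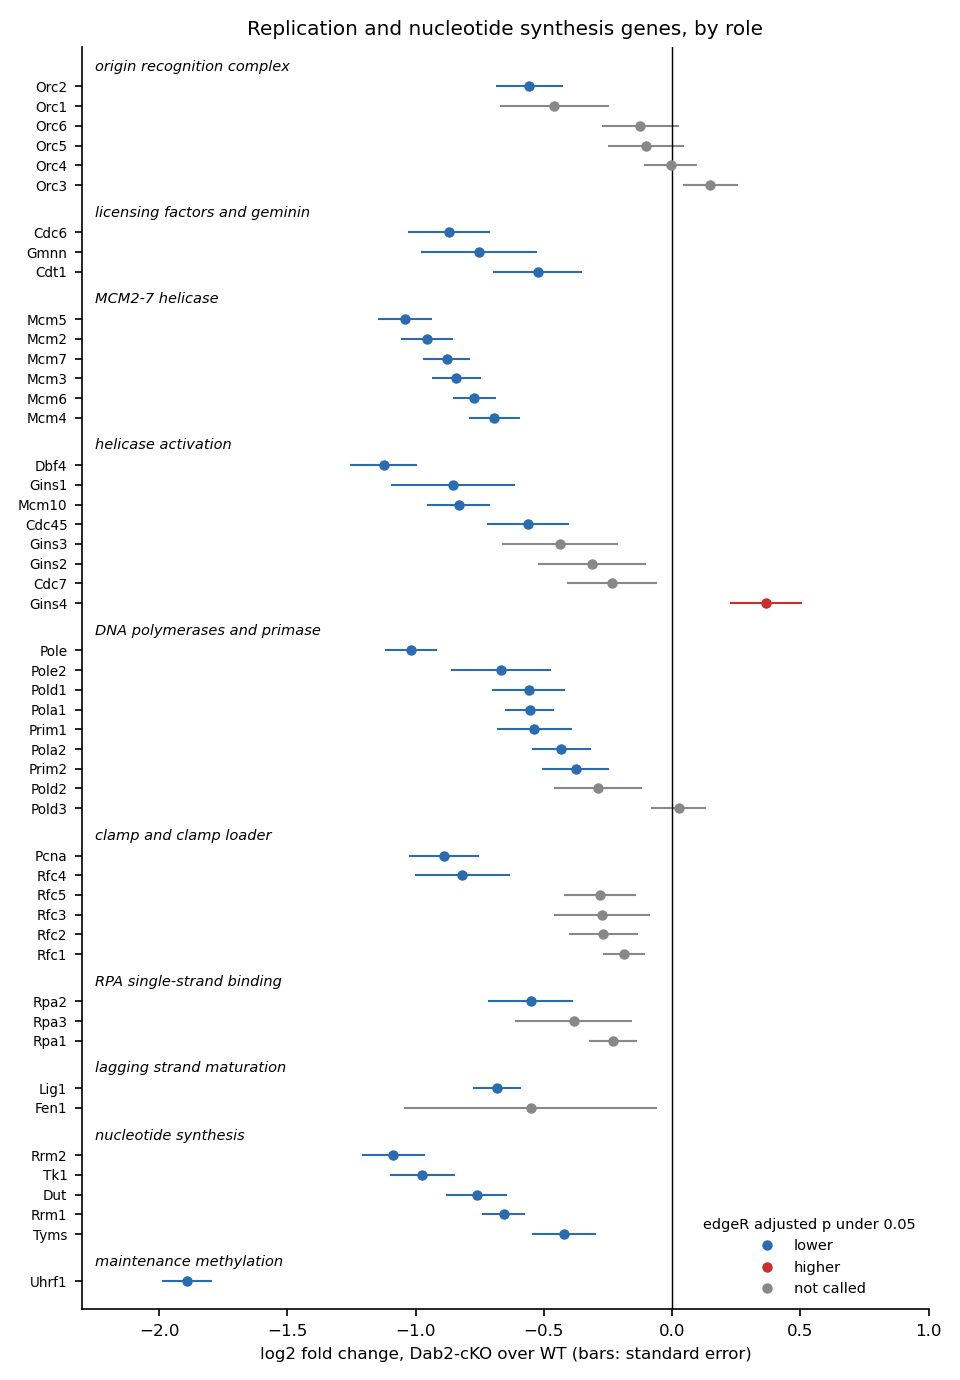
Log2 fold change of each of the 49 genes (Dab2-cKO over WT, 3 libraries each), grouped by role, with the standard error as a bar and the call of the edgeR test as the colour. The MCM2-7, licensing and nucleotide synthesis groups lie wholly to the left of 0, the origin recognition subunits lie near it apart from Orc1 and Orc2, and Uhrf1 stands farthest to the left at -1.89.

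Uhrf1, which encodes the protein that reads hemimethylated DNA behind the fork and brings the maintenance methyltransferase to it, had the lowest fold change of the 49. It was read at 715, 896 and 769 normalized counts in libraries labelled WT and at 245, 198 and 196 in those labelled Dab2-cKO. The lowest WT value was thus well above the highest Dab2-cKO value, and Uhrf1 was 3.72-fold lower (log2 fold change -1.89 ± 0.0978 SE, edgeR adjusted p = 3.74e-27). Dnmt1, the methyltransferase itself and not one of the 49, fell by 0.79 on the log2 scale. Dbf4 came next to Uhrf1 in the order of fold changes at -1.12 ± 0.13 SE, followed by Rrm2, Mcm5 and Pole at -1.09, -1.04 and -1.02, so the 4 genes after Uhrf1 in this order did not differ from each other beyond their standard errors.

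All 6 subunits of the MCM2-7 helicase, the ring that unwinds DNA ahead of the fork, fell, with a median log2 fold change of -0.86 and no overlap between the groups for any of them. Mcm2 was read at 467, 496 and 432 normalized counts in libraries labelled WT and at 239, 249.7 and 229.6 in those labelled Dab2-cKO. For Mcm3 the values were 537, 579.6 and 497 against 325, 276 and 297, and for Mcm4 they were 473, 456 and 415 against 268, 269 and 294. Each of these subunits was read in every Dab2-cKO library at less than its lowest WT value. Mcm5 fell the most of the 6, from 411, 441 and 476 to 227, 221 and 198 (log2 fold change -1.04 ± 0.11 SE, edgeR adjusted p = 1.84e-13). Mcm6, the highest subunit per kb of exon, was read at 691, 705 and 732 against 401, 426 and 423. Mcm7 had the closest values among the WT mice, with 573, 569.7 and 580.2 normalized counts against 329, 292 and 315. The 6 fold changes ran from -1.04 for Mcm5 to -0.69 ± 0.0996 SE for Mcm4, with edgeR adjusted p-values from 1.84e-13 to 1.96e-08. Summed over the subunits, the complex gave 3177 ± 60.5 normalized counts (SD, n = 3) in WT and 1759 ± 27.8 in Dab2-cKO. Levels per kb use all annotated exons of a gene, joined over its isoforms, which can exceed 1 transcript. For Mcm7 this was 5.612 kb, where its longest protein-coding transcript had 2962 bases. The order of genes by level therefore depends on the length used. Per kb of joined exon, the highest subunit exceeded the lowest by 2.07 to 2.47 times in the libraries labelled WT and by 2.44 to 2.69 times in those labelled Dab2-cKO.

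**Figure D2:**
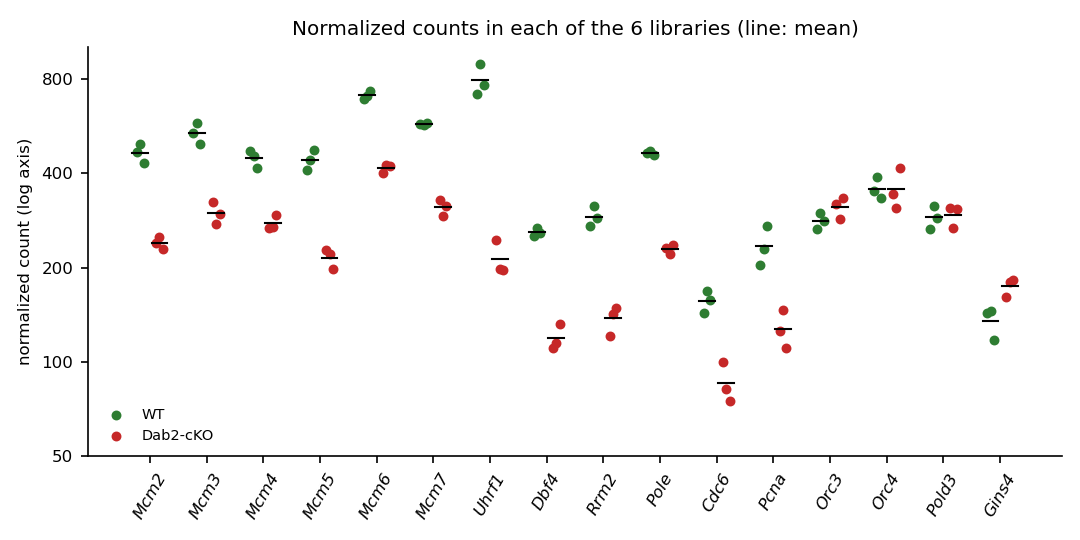
Normalized counts (log axis) of 16 of the 49 genes in each of the 6 libraries, WT in green and Dab2-cKO in red, with the mean as a line. The 3 red points lie below the 3 green points for Mcm2 to Mcm7, Uhrf1, Dbf4, Rrm2, Pole, Cdc6 and Pcna, the colours overlap for Orc3, Orc4 and Pold3, and the red points lie above for Gins4.

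The promoters of these genes were searched for sequence features that were not used to choose them, and E2F site letters were frequent among them. RefSeq's promoter windows, 250 bases before to 50 after a gene's start on GRCm38.p6, were at hand for 41 of the 49 genes. A script searched both strands for 4 spellings of the E2F site, TTTGGCGC, TTTCCCGC, TTTGCCGC and TTTCGCGC, and counted a match wherever the letters stood, so that matches may overlap, as where TTTCGCGC runs into GCGCCAAA, the other strand's TTTGGCGC. Of the 41 genes, 16 held a match, or 39.0%, against 3.23% of the 17528 tested genes with a window and 2.60% of all genes with one. The share was 42.3% (11 of 26) among those that fell and 33.3% (5 of 15) among the others, and it was 4.00% (1 of 25) among the mitosis genes described further on. By window, 31.4% of the 51 held a match, against 2.77% of the windows of the tested genes. CCAAT, the letters that the factor NF-Y binds, stood in the windows of 24 of the 41 (58.5%), of 41.6% of the tested genes and of 76.0% of the mitosis genes. Shown here, 5′ to 3′ on the gene's own strand with the matched bases in capitals, are the windows of the 4 genes with a match and the lowest fold changes, that of Mcm6 for its 3 matches, the most of the 16, and that of Orc3, which has a match and was not called.
Uhrf1, chr17:56304063-56304362, plus strand: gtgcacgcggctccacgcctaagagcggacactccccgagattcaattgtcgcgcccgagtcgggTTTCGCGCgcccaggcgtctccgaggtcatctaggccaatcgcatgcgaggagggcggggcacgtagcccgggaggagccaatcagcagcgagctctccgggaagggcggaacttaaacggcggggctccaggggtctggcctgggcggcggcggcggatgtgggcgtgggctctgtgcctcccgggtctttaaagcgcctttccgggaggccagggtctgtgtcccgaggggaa
Mcm5, chr8:75109259-75109558, plus strand: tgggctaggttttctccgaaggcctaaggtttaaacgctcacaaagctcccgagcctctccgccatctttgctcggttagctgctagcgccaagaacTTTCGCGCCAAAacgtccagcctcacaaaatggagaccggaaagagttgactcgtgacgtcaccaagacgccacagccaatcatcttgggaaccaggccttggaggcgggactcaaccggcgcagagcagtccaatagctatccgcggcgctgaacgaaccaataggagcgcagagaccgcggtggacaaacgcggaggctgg
Mcm7, chr5:138171834-138172133, minus strand: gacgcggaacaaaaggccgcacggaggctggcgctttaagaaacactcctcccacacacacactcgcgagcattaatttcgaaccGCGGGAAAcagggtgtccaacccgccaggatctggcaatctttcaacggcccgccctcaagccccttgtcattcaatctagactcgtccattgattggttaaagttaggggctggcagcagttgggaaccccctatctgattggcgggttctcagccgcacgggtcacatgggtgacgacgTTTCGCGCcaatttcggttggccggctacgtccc
Cdc6, chr11:98907901-98908200, plus strand: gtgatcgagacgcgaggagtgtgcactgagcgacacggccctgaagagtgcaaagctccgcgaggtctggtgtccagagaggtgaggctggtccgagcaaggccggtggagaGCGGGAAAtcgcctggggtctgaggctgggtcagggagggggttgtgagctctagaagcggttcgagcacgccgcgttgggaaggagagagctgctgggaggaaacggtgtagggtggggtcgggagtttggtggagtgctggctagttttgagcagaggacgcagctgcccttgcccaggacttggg
Mcm6, chr1:128359656-128359955, minus strand: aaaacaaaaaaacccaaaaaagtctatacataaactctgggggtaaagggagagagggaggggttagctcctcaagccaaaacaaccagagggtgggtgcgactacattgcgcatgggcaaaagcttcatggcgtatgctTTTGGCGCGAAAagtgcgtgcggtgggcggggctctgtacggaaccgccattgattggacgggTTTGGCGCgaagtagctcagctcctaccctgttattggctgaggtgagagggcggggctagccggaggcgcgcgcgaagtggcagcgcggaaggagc
Orc3, chr4:34614893-34615192, minus strand: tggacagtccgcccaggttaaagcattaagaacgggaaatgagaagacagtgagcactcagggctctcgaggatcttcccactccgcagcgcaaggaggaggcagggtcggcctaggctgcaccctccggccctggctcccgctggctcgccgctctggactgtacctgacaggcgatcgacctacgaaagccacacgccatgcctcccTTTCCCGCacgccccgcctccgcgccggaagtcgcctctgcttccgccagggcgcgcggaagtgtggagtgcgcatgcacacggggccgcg
The match begins 185 bases before the start in Uhrf1, 138 before it in Cdc6 and 41 before it in Orc3, so genes that fell by different amounts, and 1 that was not called, carry the same kind of letters near their starts. Such a match is a description of the letters and not a mapped binding site.

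The licensing factors fell, while the origin recognition complex on which they act did so for a single subunit. Cdc6, the loader, was read at 144, 169 and 158 normalized counts in libraries labelled WT and at 100.1, 81.7 and 75.1 in those labelled Dab2-cKO (log2 fold change -0.87 ± 0.16 SE, edgeR adjusted p = 6.19e-06). Cdt1, its partner, was read at 106, 147 and 109 against 73.4, 99.0 and 80.6, the smallest change of the 3 at -0.52 ± 0.17 SE (edgeR adjusted p = 0.0158). Gmnn, the inhibitor of CDT1, lay between them at -0.75 ± 0.23 SE. None of the 3 had overlapping groups. Cdt1 was not called by DESeq2 (adjusted p = 0.0753) and lost its edgeR call without WT replicate 2 (adjusted p = 0.244) or Dab2-cKO replicate 1 (0.090), and Gmnn without WT replicate 1 (0.108) or Dab2-cKO replicate 1 (0.0503).

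Orc2 was the subunit that fell, from 188, 275 and 244 to 167, 175 and 141 normalized counts (log2 fold change -0.56 ± 0.13 SE, edgeR adjusted p = 4.15e-04). Orc1, the subunit whose protein comes and goes with the cell cycle, was read at 95.8, 75.8 and 66.6 against 59.1, 57.5 and 55.2, groups that did not overlap, yet the test did not call it (-0.46 ± 0.21 SE, edgeR adjusted p = 0.103, or 0.0235 when scaled by the upper quartile and 0.0271 among genes averaging 50 or more counts). The remaining subunits overlapped between the genotypes. Orc3 was read at 266, 299.7 and 282 against 320.4, 285 and 334 and had the highest fold change of the group at 0.15 ± 0.11 SE. Orc4 was read at 351, 388 and 335 against 343, 309.5 and 417, and its fold change of -0.0053 ± 0.10 SE was the closest to 0 of all 49. Orc5 was read at 171, 145 and 173 against 187, 108 and 158, with 1 Dab2-cKO library above and 1 below all WT libraries. Orc6, the most abundant of the 6 per kb of exon, was read at 143, 125 and 146 against 122, 140.4 and 117. The median over the 6 subunits was -0.11, and their summed normalized counts were 1257 ± 47.8 (SD, n = 3) in WT and 1166 ± 78.9 in Dab2-cKO.

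Of the 8 genes that turn loaded helicases into forks, 4 fell, 1 rose and 3 were not called. Dbf4 (chromosome 5, 8445717 to 8472796, minus strand of GRCm39), the activating subunit of the CDC7 kinase, fell the most, from 253, 268 and 259 to 111, 115 and 132 normalized counts (log2 fold change -1.12 ± 0.13 SE, edgeR adjusted p = 2.32e-11). Cdc7, the kinase, was read at 101, 121 and 103 against 95.4, 112 and 70.6, with overlapping groups and a fold change of -0.23 ± 0.18 SE that was not called. Mcm10 and Cdc45, which join the helicase as it is activated, fell by 0.83 and 0.56 on the log2 scale. The 4 GINS genes, whose products form 1 complex, went different ways. Gins1 fell from a mean of 71.7 ± 7.37 (SD, n = 3) to 39.3 ± 12.1 normalized counts (log2 fold change -0.85 ± 0.24 SE, edgeR adjusted p = 0.00345) and lost its call without Dab2-cKO replicate 3 (adjusted p = 0.0508). Gins2 was read at 66.8, 94.8 and 91.4 against 47.7, 93.2 and 66.2 and Gins3 at 64.6, 62.3 and 79.5 against 63.9, 43.7 and 44.1. Neither was called and both had overlapping groups. Gins3 was called lower when scaled by the upper quartile (edgeR adjusted p = 0.0456) and among genes averaging 50 or more counts (0.0474), and Gins2 was called lower without Dab2-cKO replicate 2 (edgeR adjusted p = 0.042), the library in which it was highest among the 3. Gins4 (chromosome 8, 23715215 to 23727777, minus strand) was read at 144, 145 and 117 in the libraries labelled WT and at 161, 179 and 182 in those labelled Dab2-cKO, the 1 gene of the 49 with every Dab2-cKO library above every WT library, where 20.6% of all genes tested showed that order. Its rise of 0.37 ± 0.14 SE (edgeR adjusted p = 0.0417) was called in the main test but not by DESeq2 (adjusted p = 0.117), nor by edgeR without WT replicate 3 (adjusted p = 0.246), Dab2-cKO replicate 2 (0.142) or Dab2-cKO replicate 3 (0.162), and its sign was negative, at -0.06, when counts were scaled by library size alone. The summed GINS counts were 360 ± 15.0 (SD, n = 3) in WT and 333 ± 24.4 in Dab2-cKO.

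The leading strand polymerase changed most among the polymerase genes, of which 7 of 9 fell. Pole, the catalytic subunit of polymerase epsilon, was read at 465, 472 and 457 normalized counts in libraries labelled WT and at 232, 221 and 236 in those labelled Dab2-cKO, so the level was 49.4% of that in WT (log2 fold change -1.02 ± 0.10 SE, edgeR adjusted p = 9.66e-14). Pole2, its second subunit, fell by 0.67. The polymerase alpha and primase genes, which make the primers, fell by less, at -0.55 for Pola1, -0.54 for Prim1, -0.43 for Pola2 and -0.38 for Prim2. Prim1 lost its call without Dab2-cKO replicate 3 (edgeR adjusted p = 0.0605), and Prim2 by DESeq2 (adjusted p = 0.0822) and by edgeR without WT replicate 1 (0.124), WT replicate 2 (0.111) or Dab2-cKO replicate 3 (0.117). For polymerase delta, which copies the lagging strand, the catalytic subunit and the accessory ones differed in their calls. Pold1 was read at 184, 240.1 and 214 against 186, 112 and 134 and was called at -0.56 ± 0.14 SE, although 1 Dab2-cKO library lay within the WT range. Pold2 was read at 102, 127 and 126 against 90.6, 75.9 and 126, with overlap and a fold change of -0.29 ± 0.17 SE that was not called, but it was called without Dab2-cKO replicate 3, its highest library of the 3 (edgeR adjusted p = 0.032), and when scaled by the upper quartile (0.0492). Pold3, the highest of the group, was read at 265, 315 and 289 against 311, 267 and 307. Its fold change of 0.03 ± 0.11 SE changed sign in 8 of the 14 alternative settings.

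Pcna, the sliding clamp, fell, and of its 5 loader genes Rfc4 alone was called in the main test, a count that depended on the scaling and the filter. Pcna was read at 204, 229 and 272 normalized counts in libraries labelled WT and at 126, 146 and 110.4 in those labelled Dab2-cKO (log2 fold change -0.89 ± 0.14 SE, edgeR adjusted p = 1.01e-07). Rfc4 fell from a mean of 118 ± 25.5 (SD, n = 3) to 66.2 ± 1.91. Rfc1, the large loader subunit, had the smallest change of the group, with 631, 692 and 634 against 571, 558 and 590.5 (-0.19 ± 0.0807 SE, edgeR adjusted p = 0.0763). Its groups did not overlap, and neither did those of Rfc2 and Rfc5, although the main test called none of these 3. Scaled by the upper quartile, all 3 were called lower (edgeR adjusted p = 0.000111 for Rfc1, 0.0115 for Rfc2 and 0.0116 for Rfc5), as they were among genes averaging 50 or more counts (0.00183, 0.0181 and 0.0181). Rfc1 was also called with TMM computed without mitochondrial and the 100 most abundant genes (edgeR adjusted p = 0.0222) and with no low-count filter (0.0434). Rfc2 was read at 175, 188 and 176 against 149, 159 and 140.2 and Rfc5 at 175, 179.7 and 161 against 128, 144 and 153. Rfc3, whose groups overlapped, was read at 106, 97.5 and 78.6 against 86.8, 72.5 and 71.7. Over the 5 loader genes the summed counts were 1216 ± 53.3 (SD, n = 3) in WT and 1007 ± 11.0 in Dab2-cKO.

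The 3 RPA genes, whose products cover single-stranded DNA, were lower by 0.23 to 0.55 on the log2 scale, and Rpa2 alone was called in the main test. Rpa1 was read at 445, 453 and 481 normalized counts against 364, 379 and 434 (-0.23 ± 0.0935 SE, edgeR adjusted p = 0.0543), close to the threshold and with no overlap between the groups, and it was called without WT replicate 1 (0.0473) or Dab2-cKO replicate 3 (0.00932). Rpa1 was also called with TMM computed without mitochondrial and the 100 most abundant genes (edgeR adjusted p = 0.02), with no low-count filter (0.0259), by the upper quartile (0.000306) and among genes averaging 50 or more counts (0.00204), so the count of RPA genes that fell depended on the setting. Rpa2 was read at 126, 123 and 142 against 85.8, 79.4 and 102 (-0.55 ± 0.16 SE, edgeR adjusted p = 0.00627, or 0.0641 without WT replicate 3). Rpa3, the smallest subunit, was read at 91.3, 60.5 and 67.5 against 35.3, 72.5 and 60.7, with overlap. On the lagging strand, Lig1, the ligase that joins Okazaki fragments, fell from 511, 556 and 516 to 339, 319 and 328 (log2 fold change -0.68 ± 0.0925 SE, edgeR adjusted p = 3.78e-09). Fen1, the flap nuclease that acts just before the ligase, was read at 18.9, 9.03 and 21.4 against 5.72, 18.4 and 9.93, too few counts to tell the genotypes apart (-0.55 ± 0.49 SE).

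All 5 enzymes of deoxynucleotide synthesis fell, with no overlap between the groups. Rrm2, the small subunit of ribonucleotide reductase and the one that dividing cells make in S phase, was read at 272, 314 and 287 normalized counts in libraries labelled WT and at 121, 143 and 149 in those labelled Dab2-cKO (log2 fold change -1.09 ± 0.12 SE, edgeR adjusted p = 1.68e-11). Rrm1, the large subunit, fell less, to 63.5% of its WT level (-0.66 ± 0.0842 SE). Tk1, the thymidine salvage kinase, and Dut, which clears dUTP, fell by 0.97 and 0.76 on the log2 scale. Tyms, thymidylate synthase, changed the least of the 5, from 209, 249 and 238 to 164, 194 and 164 (-0.42 ± 0.12 SE, edgeR adjusted p = 0.00570).

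Partners in the same step were also set against each other within each library, by ratios that no scaling between libraries can change. With 3 libraries against 3, the exact 2-sided permutation test cannot give a p below 0.1. Rrm2 stood at 0.394, 0.473 and 0.409 counts for each count of Rrm1 in WT and at 0.291, 0.305 and 0.354 in Dab2-cKO. For each count of Cdc7 there were 2.49, 2.22 and 2.50 counts of Dbf4 in WT and 1.16, 1.03 and 1.88 in Dab2-cKO. Pcna stood at 0.165, 0.182 and 0.235 counts per count of Rfc1 to Rfc5 together in WT and at 0.126, 0.146 and 0.108 in Dab2-cKO. None of these 3 ratios overlapped between the genotypes, and each gave the smallest p the exact test allows, 0.1 (0.2 after Benjamini-Hochberg adjustment over the 6 ratios), with log2 differences of -0.43 for Rrm2 over Rrm1, -0.88 for Dbf4 over Cdc7 and -0.61 for Pcna over its loader. Orc1 over Orc2 to Orc5 overlapped, with a log2 difference of -0.37 (exact permutation p = 0.2, adjusted 0.3), as did Cdt1 over Gmnn, with 0.25 (exact permutation p = 0.6). The ratio of Mcm10 to the MCM2-7 sum kept within 0.0806 and 0.0843 in all 6 libraries, a log2 difference of 0.02 (exact permutation p = 0.4, adjusted 0.48), while both parts of the ratio fell.

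**Figure D3:**
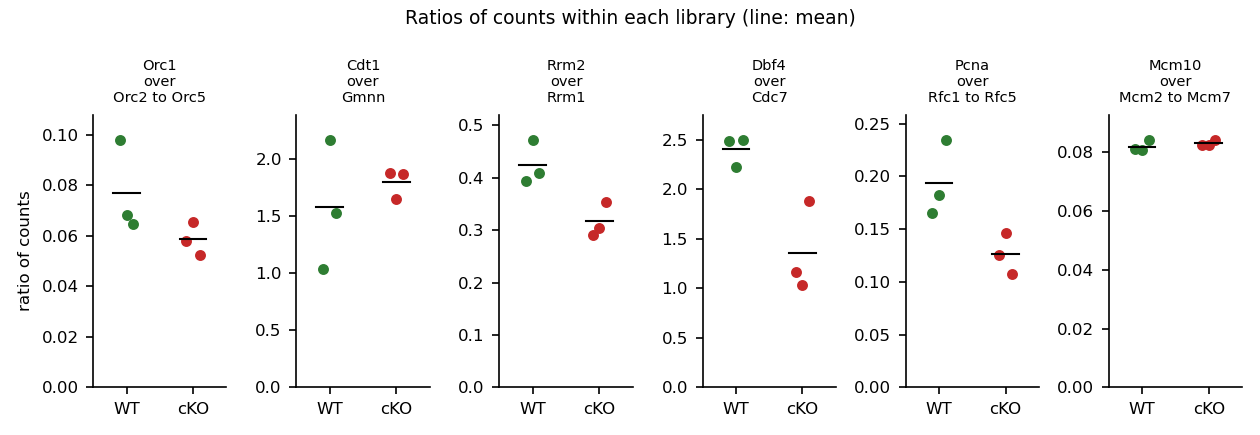
Ratios of raw counts within each of the 6 libraries (WT green, Dab2-cKO red, mean as a line), with each vertical axis starting at 0. The colours separate for Rrm2 over Rrm1, Dbf4 over Cdc7 and Pcna over Rfc1 to Rfc5, and all 6 values lie together, from 0.0806 to 0.0843, for Mcm10 over Mcm2 to Mcm7.

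The genes that fell and those that did not also differed in depth. The 31 genes that fell had a median WT level of 260 normalized counts and a median standard error of 0.12 on the log2 scale, and the 18 others had a median WT level of 137 and a median standard error of 0.15. Total RNA libraries can also hold an even layer of reads over the genome, and 1526 olfactory, vomeronasal and trace amine receptor genes, which skin should not use, gave its level, with a median over these genes of 4.94 normalized counts for each kb of exon and a 95th percentile of 11.8. Fen1 lay at that level, with 5.08 per kb in WT and 3.51 in Dab2-cKO, and was the 1 gene of the 49 under the 95th percentile in both genotypes. Orc1, at 13.8 per kb in WT and 9.97 in Dab2-cKO, lay under that percentile in Dab2-cKO alone. Dbf4, at 25.8 and 11.8, came near it in Dab2-cKO. For Dbf4 this rests on 10.1 kb of joined exon, where its longest protein-coding transcript had 2526 bases. The highest levels per kb of joined exon in WT were those of Uhrf1 (150), Mcm6 (131), Lig1 (117), Mcm7 (102) and Dut (102). Another length could change this order, as Tk1 has 6.67 kb of joined exon and a longest protein-coding transcript of 1462 bases. With the median receptor level taken off each gene in each library, the median log2 ratio was -0.67 over the 48 genes that stayed above it (all but Fen1), where the median fold change of the 49 was -0.56.

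**Figure D4:**
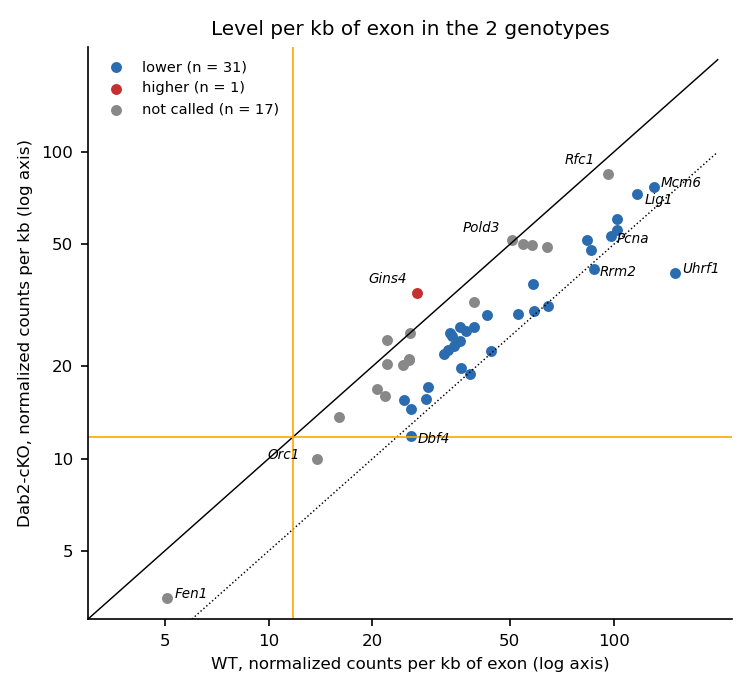
Mean normalized counts per kb of exon in Dab2-cKO against WT (log axes) for the 49 genes, coloured by the call of the edgeR test; the solid line marks equal levels, the dotted line a 2-fold lower level, and the orange lines the 95th percentile of the receptor genes, 11.8. Most points lie between the solid and dotted lines at all levels, Uhrf1 lies far below the dotted line, and Fen1 lies under both orange lines.

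Some of these counts may hold reads of other genes, or lack reads of their own that the counting set aside as shared. Which of these applied, also for the few counts of Fen1, was not tested. On GRCm39 with the GENCODE annotation, 15 of the 49 genes shared over 10% of their exon bases with a gene on the opposite strand, led by Gins2 (67.3%, with Gse1), Fen1 (65.9%, mostly Tmem258), Rrm2 (43.3%) and Rfc5 (41.4%, with Wsb2), and whether the counting used the strand is not given in the sources used here. Of these 15, 8 fell (median log2 fold change -0.56), and of the other 34, 23 fell and 1 rose (median -0.55). Copies of at least 95% identity elsewhere in the genome covered 82.8% of the Pcna transcript (Pcna-ps2 on chromosome 19), 80.2% of that of Mcm7 (Gm5487), 62.4% of that of Uhrf1 (Gm5648), 30.1% of that of Rfc5 and 16.0% of that of Rrm2. The Pcna copy, the most read of them, was at 36.8 to 48.6 normalized counts in every library, with the genotypes overlapping, where Pcna itself lay at 110 to 272, so how reads were shared between the pair remains uncertain. Uhrf1 itself lies on chromosome 17 from 56610275 to 56630489 on the plus strand of GRCm39, with no other annotated exon over its own, and its copy held 5.52 to 17.3 normalized counts per library.

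Other genes of the same pathway, listed apart from the 49, were also a mixture of genes that fell and genes that were not called. Of 27 other fork and origin genes, 14 fell (51.9%, against 11.5% of all genes tested), none rose (against 16.8%) and 13 were not called. Their median log2 fold change was -0.36. By DESeq2 13 fell and 0 rose, and 0 were higher at an unadjusted edgeR p under 0.05. Pclaf, a PCNA-binding protein, fell the most (-1.64 ± 0.14 SE), then Ticrr, which helps CDC45 join the helicase (-1.24 ± 0.12 SE). The smallest falls that were called were those of Top1, the topoisomerase that relaxes DNA ahead of the fork (-0.24 ± 0.0708 SE), and Topbp1, an activator of origins and of the checkpoint (-0.49 ± 0.0774 SE). The 13 not called were the small polymerase subunits Pole3, Pole4 and Pold4, the 3 ribonuclease H2 genes, the fork protection pair Timeless and Tipin, and Mcm9, Mcmbp, Donson, Dscc1 and Chtf8, with fold changes from -0.36 to 0.35.

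The wider nucleotide genes held calls in both directions. Of 35 rows tested, 14 fell (40.0%, against 11.5% of all genes tested), 8 rose (22.9%, against 16.8%) and 13 were not called, with a median log2 fold change of -0.03. The count that rose was 5 by DESeq2, 4 when scaled by the upper quartile and 1 when scaled by library size alone, with medians of -0.03, -0.17 and -0.46 in that order. Ctps, which makes CTP from UTP, was read at 1375, 1623 and 1464 normalized counts in libraries labelled WT and at 255, 222 and 201 in those labelled Dab2-cKO (log2 fold change -2.72 ± 0.0878 SE, edgeR adjusted p = 9.88e-39), a larger fall than that of any of the 49. Cad, which carries the first steps of pyrimidine synthesis, fell by 1.15, whereas Umps and Dhodh, the later steps of that route, were at 0.0209 ± 0.15 SE and -0.17 ± 0.16 SE and were not called. Samhd1, which breaks deoxynucleotides down, was read at 287, 356 and 314 against 1548, 1485 and 1512 (2.24 ± 0.0812 SE, edgeR adjusted p = 7.04e-36), the highest rise of the list. Samhd1 is also abundant in myeloid cells, and the summed immune markers lay at 1639 to 1798 normalized counts in WT and at 7374 to 7553 in Dab2-cKO; their part in its rise was not tested. Tk2, the mitochondrial thymidine kinase, rose by 0.63 ± 0.14 SE. The others not called were Dck, Dguok, Dtymk, Dctpp1, Rrm2b, Ctps2, Hprt, Aprt, Adsl and 2 rows that carry the symbol Ppat, with fold changes from -0.33 to 0.33. Of the Ppat rows, 1 overlaps Paics on chromosome 5 and 1 lies on chromosome 11. The latter (0.12) may be another gene under that symbol, yet it is counted among the 35.

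Of 17 genes of the S phase checkpoint and of chromatin assembly, 11 fell (64.7%, against 11.5% of all genes tested) and 1 rose (5.88%, against 16.8%). The other 5 (Chek1, Asf1a, Asf1b, Rad1 and Rad17) were not called, and the median log2 fold change of the 17 was -0.42. By DESeq2 7 of the 17 fell. Rad9a of the checkpoint clamp (-0.62 ± 0.21 SE) and Chaf1a of the histone chaperone CAF-1 (-0.55 ± 0.12 SE) fell the most. Wee1, the kinase that holds CDK1 in check, was the 1 that rose (0.88 ± 0.11 SE, edgeR adjusted p = 1.02e-09), and the smallest fall called was that of Ssrp1 (-0.31 ± 0.0776 SE). All 30 mitosis genes fell, where 11.5% of all genes tested fell, and their median log2 fold change was -1.38. None had overlapping groups, where 17.7% of all genes tested had every Dab2-cKO library below every WT library. Mki67, the antigen Ki67, was read at 5854, 6537 and 6095 normalized counts against 1429, 1458 and 1351 (-2.12 ± 0.0723 SE) and Top2a, the topoisomerase that parts sister chromatids, at 2384, 2577 and 2512 against 744, 709 and 812 (-1.72 ± 0.0733 SE). Kif20a, a cytokinesis motor, was next to Mki67 at -1.86, and the falls of Anln (-0.83) and Ttk (-0.44) were the smallest. Of the 49 replication and nucleotide genes, Uhrf1 alone had a fold change below that median. The difference between the lists was not tested.

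**Figure D5:**
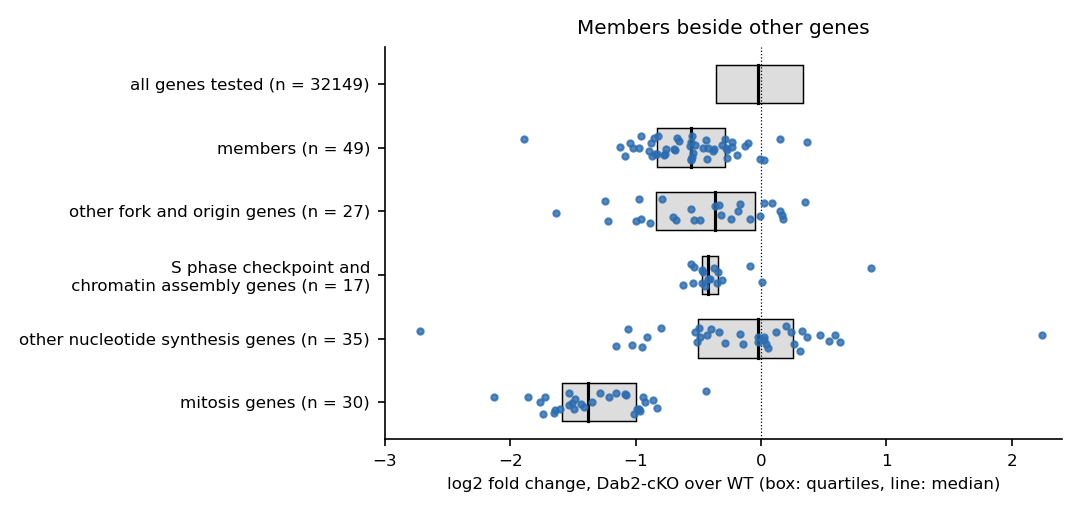
Log2 fold changes (Dab2-cKO over WT) of the 49 genes (named members), of the 4 other lists and of all genes tested, with the quartiles as a box, the median as a line and each gene of a list as a point. The median lies at -0.02 for all genes, -0.56 for the 49, -0.36 for the other fork and origin genes, -0.42 for the checkpoint and chromatin assembly genes, -0.03 for the other nucleotide genes and -1.38 for the mitosis genes.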

How the data were processed

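Total RNA of 6 sorted HFSC samples, 3 per genotype, was sequenced in paired ends, and the authors deposited 1 table of raw read counts per gene, whose columns named FL-FL were taken as Dab2-cKO, as the series title names that genotype. Per the submitters' processing notes and the study's methods, reads were trimmed with fastp 0.23.4, aligned to GRCm39 with HISAT2 2.2.1 and counted with featureCounts 2.0.6; the strand setting and the handling of reads with several places are not given in the sources used here. A second deposited table, of the authors' own DESeq2 comparison (fold changes and p-values), was not used.

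Counts were scaled by TMM (trimmed mean of M values) and tested with edgeR 4.0.16 in R 4.3.3 (filterByExpr, robust quasi-likelihood fit, all 6 libraries, no covariate), with Benjamini-Hochberg adjustment over the 32149 genes kept and a threshold of 0.05. Normalized counts are counts divided by the TMM-scaled library size and multiplied by the mean of these sizes. The same code, tested on simulated counts, recovered changes put evenly in both directions into a small share of well-counted genes. That test did not cover changes of other sizes or uneven shifts like those between these genotypes. The 3 libraries of a genotype are named as biological replicates, and p-values rest on the spread among them as edgeR's fit estimates it. This spread was small for some marker genes in libraries labelled Dab2-cKO. There the muscle marker Ckm was at 2804, 2788 and 2808 normalized counts, and Ttn at 127225, 127869 and 127894. In libraries labelled WT, Ckm was at 509, 557 and 499, and Ttn at 31327, 36639 and 33491. How much variation between mice these libraries carry was not tested. Very small p-values may rest on little of it. Totals of 7040032 to 11696457 counts limit the precision of genes with few counts, and intervals cover counting and replicate error only. Ratios within libraries were tested by exact 2-sided permutation (scipy 1.17.1). Copies of transcripts were sought with minimap2 2.31. Alternatives were DESeq2 1.42.0, other scalings and filters, a replicate block, a test against 1.5-fold and leaving out each library.

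The 49 genes and the other lists were chosen with earlier results of these data known. Values per library are given for the lowest and highest gene of each role, every gene not called lower and Mcm2 to Mcm7; of each other list the 2 lowest and 2 highest called genes and those not called are named, beside Dab2, Mki67 and Top2a. Dnmt1, Umps, Dhodh and the per-role values of further genes were added with their values in view. Of the symbols listed, Krt85 and Adss2 matched no row, Adss being listed too, and Nme2 had too few counts to be tested. The replicate numbers were not used to pair the libraries in the main test.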

Additional observations from a re-analysis of the deposited data

How the results depend on the processing

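Under 14 alternative settings the 49 genes (48 with a mean count of at least 50) kept a median log2 fold change below 0. Of the 31 that fell, 11 did so in every setting. These were the 11 called lower in the test against a 1.5-fold change, a stricter question, which thus set that count. In every fit that left out 1 library, 25 of the 31 fell. Genes called lower numbered 29 with DESeq2, 38 with upper-quartile scaling, 33 both with TMM computed without mitochondrial and the 100 most abundant genes and with no low-count filter, 37 with a mean count of at least 50, 47 with library size only and 11 in the test against a 1.5-fold change. Leaving out 1 library gave 29 to 32 lower and 0 to 1 higher. The 1 gene called higher became 0 with DESeq2, library sizes alone, upper-quartile scaling, the narrower TMM, no filter, the mean count of 50 and the 1.5-fold test. The median of the 49 moved to -0.70 (upper-quartile), -0.98 (library sizes alone) and, over 48 genes without Fen1, -0.64 with the mean count of 50 and -0.67 with the receptor level subtracted, and ranged from -0.65 to -0.53 without 1 library. The median over all genes tested moved with the scaling, to -0.17 by the upper quartile and to -0.45 by library size, and the 49 stayed 0.53 below it in both; the lower share of all calls was 40.6% as reported, 56.5% and 80.6% in the same order. The cause of these moves was not tested beyond the scaling itself.

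Signs reversed for genes close to 0. With library size only, Orc3 went to -0.28, Gins4 to -0.06 and Pold3 to -0.40. Pold3 was also at -0.12 with upper-quartile scaling, -0.0029 with the narrower TMM, -0.0077 with no filter and -0.060 with the mean count of 50, and without 1 library it ranged from -0.032 to 0.0989, below 0 without WT replicate 1 (-0.026), Dab2-cKO replicate 1 (-0.032) or Dab2-cKO replicate 3 (-0.023). Orc4 went to 0.068 without WT replicate 2, 0.0060 without Dab2-cKO replicate 1 and 0.058 without Dab2-cKO replicate 2, with a range of -0.151 to 0.068, and Orc5 to 0.055 without the last, with a range of -0.311 to 0.055. Cdt1 over Gmnn ranged from -0.0203 (without WT replicate 1) to 0.51; the other 5 ratios kept their sign without any 1 library.

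For the other lists these alternatives were added after the data were seen. The other fork and origin genes had 23 lower with library size only and 6 in the 1.5-fold test, with medians of -0.51 (upper-quartile), -0.79 (library size only) and -0.51 (mean count of 50), from -0.48 to -0.27 without 1 library, and 0 to 1 higher there. The other nucleotide genes had 22 lower with library size only and 5 in the 1.5-fold test, and 5 higher with DESeq2, 4 by the upper quartile, 1 with library size only and 1 in the 1.5-fold test, with 5 to 9 higher without 1 library; their median was -0.17 (upper-quartile), -0.46 (library size only), -0.056 (narrower TMM), -0.060 (no filter), -0.11 (mean count of 50) and -0.10 to -0.0127 without 1 library. The checkpoint and chromatin assembly genes had 7 lower with DESeq2, 0 in the 1.5-fold test and 7 to 11 without 1 library, with medians of -0.57 (upper-quartile), -0.85 (library size only), -0.46 (no filter), -0.51 (mean count of 50) and -0.48 to -0.36 without 1 library. The mitosis median was -1.52 (upper-quartile), -1.81 (library size only), -1.47 (mean count of 50) and -1.43 to -1.27 without 1 library.

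Replicate numbers are shared between the genotypes, but the deviations of same-numbered libraries were nearly uncorrelated (r of 0.023, 0.012 and 0.0076), so the numbers name and do not pair them; each library correlated best with its own number, a hint from the data alone. With the replicate number as a block, 31 genes fell and 1 rose, and all 49 calls were as reported. Depth limits the genes with few counts, Fen1 above all.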
